A study of Mus musculus with 2 samples.

Results

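The genes described here are 10 genes of the vascular endothelial growth factor (VEGF) axis or named for the endothelium. They are the ligand genes Vegfa, Vegfb and Vegfc, the receptor genes Kdr, Flt1 and Flt4, the co-receptor genes Nrp1 and Nrp2, and the endothelial-named genes Vwf and Cdh5. They were found by symbol among 55536 gene entries of the deposited tables, and each of the 10 symbols matched 1 entry. They were selected on their levels and transcript shares in both libraries, with earlier results of these data known, so those values are given as a description.

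VEGF ligands are secreted dimers that drive the growth and the permeability of blood and lymphatic vessels by binding receptor tyrosine kinases on endothelial cells. Neuropilins have no kinase of their own. They bind certain VEGF forms and class 3 semaphorins, and pass them on to VEGF receptors or plexins. Macrophages are a known source of VEGF-A and VEGF-C in inflamed and healing tissue, and they are known to carry neuropilins and Flt1, whereas von Willebrand factor and VE-cadherin are textbook endothelial products.

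The cells were macrophages grown from the bone marrow of C57BL/6J mice, with no further genetic change named in the labels, whose age and sex were not recorded. All had been exposed to 100 ng/mL of a stimulus for 300 min. The labels name it in 1 field as lipid A, the membrane anchor of bacterial endotoxin, and in others as lipoprotein A, so it is called the stimulus here. Polyadenylated RNA was sequenced in 2 libraries of this 1 group, replicates 1 and 2, which came from separate biosamples with a shared donor record. No unstimulated cells were analysed here, so no value below states a response to the stimulus, and with 1 group there is no test.

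The authors deposited a pair of quantifications for each library, and values are from the first unless the second is named. Replicate 1 held 38028201 expected counts in genes (reads assigned to genes, with shared reads divided) and replicate 2 held 63649100, so levels in replicate 2 carry the smaller counting error. Of 12 macrophage markers, 11 reached 1 TPM (a level scaled for transcript length and to a fixed library total) in both libraries, with median levels of 342 TPM in replicate 1 and 430 TPM in replicate 2. The libraries also differed in genes of other blood cells. Summed levels of 9 neutrophil markers were 508 TPM in replicate 1 and 18.7 TPM in replicate 2, while those of 12 megakaryocyte and platelet markers were 771 and 108 TPM. Most of the platelet sum came from Pf4 alone, at 753 TPM in replicate 1 and 105 TPM in replicate 2. The median platelet marker was at 0.575 and 0.075 TPM. In bulk RNA, fewer cells of a type and less RNA per cell cannot be told apart.

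The most abundant of the 10 transcripts came from the co-receptors, Kdr and Vegfb, while Vegfc and Flt1 stayed under 0.5 TPM in both libraries. In all, 7 of the 10 genes reached 1 TPM in both libraries, namely Vegfa, Vegfb, Kdr, Nrp1, Nrp2, Vwf and Cdh5. The same level was reached by 18.0% of all gene entries and by 42.5% of nuclear protein-coding genes. Flt4 reached it in replicate 2 alone. The median level of the 10 genes was 4.36 TPM (replicate 1) and 9.93 TPM (replicate 2), beside 0.32 and 0.21 TPM for all nuclear protein-coding genes.

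**Figure D1:**
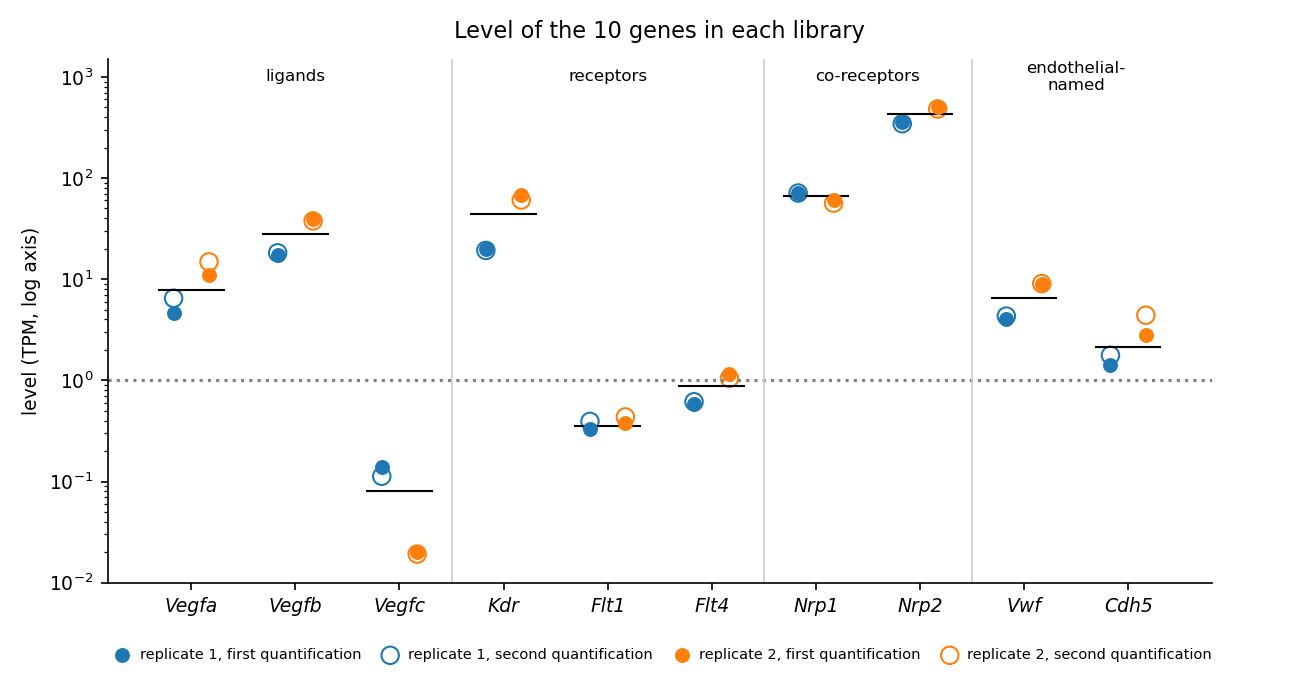
Level of each gene in TPM on a log axis, by role. Filled circles are the first quantification and open circles the second, replicate 1 stands left of replicate 2, black bars are the means of the first quantification and the dotted line marks 1 TPM. Nrp2 lies highest at 357 and 506 TPM, and Vegfc lowest at 0.14 and 0.02 TPM.

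Among the ligands, Vegfb was the most abundant. Vegfb (chr19:6982473-6987651, minus strand, mm10) encodes a ligand of Flt1 with weak vessel-growth activity of its own. It measured 17.2 TPM in replicate 1 and 39.3 TPM in replicate 2, from 410 and 1577 expected counts, a mean of 28.3 ± 15.6 TPM (SD, n = 2). Vegfa (chr17:46016993-46032369, minus strand), which encodes the main driver of vessel growth and a ligand of both Kdr and Flt1, measured 4.63 TPM in replicate 1 and 10.9 TPM in replicate 2, from 281 and 708 counts. Its mean was 7.76 ± 4.42 TPM (SD, n = 2). The authors' credibility interval for Vegfa in replicate 1, whose level is not stated, ran from 4.79 to 7.30 TPM, above the listed value. Replicate 2 was therefore the higher library for each of these ligands. The TPM level of Vegfa over that of Vegfb was -1.89 on the log2 scale in replicate 1 and -1.85 in replicate 2, with a mean of -1.87 ± 0.028 (SD, n = 2). That closeness of the libraries holds in TPM and not in expected counts, where the log2 ratio of Vegfa over Vegfb was -0.55 in replicate 1 and -1.16 in replicate 2. It also rests on the short transcript Vegfa-203, without which the TPM ratio was -1.89 in replicate 1 and -2.53 in replicate 2. The second quantification gave -1.49 in replicate 1 and -1.34 in replicate 2.

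Vegfc (chr8:54077606-54187096, plus strand), the lymphatic growth factor that binds Flt4, was at the edge of detection. Its 1 count in replicate 1 was worth 0.14 TPM and its 2 counts in replicate 2 were worth 0.02 TPM. Both lie under the level that 3 counts would give, 0.43 TPM in replicate 1 and 0.033 TPM in replicate 2, so no fold is given. The remaining VEGF family ligands were low as well. Pgf, placental growth factor and a ligand of Flt1, measured 0.43 TPM from 14 counts in replicate 1 and 0.83 TPM from 42 counts in replicate 2. Vegfd, a second ligand of Flt4, had 0 counts in either library, where 3 counts would be worth 0.099 TPM in replicate 1 and 0.059 TPM in replicate 2. That limit covers counting error in the first quantification only, and the second gave Vegfd 0.21 TPM in replicate 1 and 0.32 TPM in replicate 2, from 3.87 and 9.87 estimated counts.

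The transcripts of Vegfa and Vegfb differ in short coding segments near the end of the protein, shown here because the forms of each gene are counted by them. In Vegfa, exons 6 and 7 (numbered as in Vegfa-207, which has both) encode the parts that bind heparin and hold the protein near the cell. In Vegfb, a longer exon 6 shifts the reading frame and gives the freely diffusible form in place of the heparin-binding one. Capitals are the segment and lower case the 15 transcript bases on either side, 5′ to 3′ on the gene's strand, from the GENCODE M21 transcripts.
Vegfa exon 7 insert, chr17:46020991-46021122, in Vegfa-202: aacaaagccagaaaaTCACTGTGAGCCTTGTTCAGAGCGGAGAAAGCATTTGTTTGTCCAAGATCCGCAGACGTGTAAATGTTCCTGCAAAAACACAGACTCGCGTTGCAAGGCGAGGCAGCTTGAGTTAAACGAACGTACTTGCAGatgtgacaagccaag
Vegfa exon 6 insert, chr17:46022277-46022348, in Vegfa-203: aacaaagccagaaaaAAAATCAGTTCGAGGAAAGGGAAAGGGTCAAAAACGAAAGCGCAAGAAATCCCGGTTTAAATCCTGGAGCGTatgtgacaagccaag
Vegfb exon 6 extension, chr19:6985496-6985596, in Vegfb-201: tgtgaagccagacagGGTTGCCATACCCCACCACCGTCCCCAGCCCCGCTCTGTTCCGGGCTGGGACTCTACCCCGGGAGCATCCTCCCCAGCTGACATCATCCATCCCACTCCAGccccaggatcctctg

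Of the TPM in protein-coding Vegfa transcripts, forms with the 132-base exon 7 insert alone held 58.5% in replicate 1 and 24.9% in replicate 2. Forms with neither insert held 20.6% in replicate 1 and 29.6% in replicate 2, and forms with both inserts 20.9% and 3.12%. The level of the leading form in replicate 1, Vegfa-202, was close to equal in the 2 libraries, at 2.33 TPM from 185 counts and 2.39 TPM from 315 counts. Vegfa-201, with neither insert, measured 0.82 TPM from 51.3 counts in replicate 1 and 2.84 TPM from 295 counts in replicate 2. Vegfa-203, a 513-base transcript with the exon 6 insert alone, was listed at 0 TPM in replicate 1 and at 4.08 TPM in replicate 2. That level is 42.5% of coding TPM in replicate 2 but rests on 45.0 counts, 6.66% of coding reads. The authors' credibility intervals for Vegfa-203, whose level is not stated, ran from 0 to 1.33 TPM in replicate 1 and from 1.95 to 5.66 TPM in replicate 2. The second quantification gave the exon 6 form 12.3% in replicate 1 and 62.5% in replicate 2, again the higher share in replicate 2. The Vegfa level in replicate 2 thus rests in part on few reads assigned to a short transcript. A transcript with a retained intron, Vegfa-210, held 13.8% of all Vegfa TPM in replicate 1 and 9.32% in replicate 2, and Vegfa-207, with both inserts, held 18.0% and 2.79%.

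Vegfb was divided more evenly. The form with the exon 6 extension, Vegfb-201, held 59.6% in replicate 1 and 51.3% in replicate 2, and Vegfb-202 without it held 40.4% and 48.7%. Vegfb-201 was the leading form in both libraries and in both quantifications, with 67.5% and 54.5% in the second.

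Among the receptors, Kdr held nearly all of the signal. Kdr (chr5:75932827-75978458, minus strand), or VEGFR2, the main signalling receptor for VEGF-A in endothelial cells, measured 20.0 TPM in replicate 1 and 67.6 TPM in replicate 2, from 2815 and 15740 counts. Its mean was 43.8 ± 33.7 TPM (SD, n = 2), and Kdr ranked 3996 in replicate 1 and 1753 in replicate 2 among 21938 nuclear protein-coding genes. Flt1 (chr5:147561604-147726011, minus strand), or VEGFR1, which binds VEGF-A tightly and signals weakly, measured 0.33 TPM from 50 counts in replicate 1 and 0.38 TPM from 94 counts in replicate 2, a mean of 0.355 ± 0.035 TPM (SD, n = 2). The authors' credibility intervals for Flt1 ran from 0.37 to 3.46 TPM in replicate 1 and from 0.39 to 1.97 TPM in replicate 2. Both lie above the listed levels, and each is far wider than the SD of 0.035 TPM. The SD thus does not cover the whole uncertainty of Flt1. Listed levels also lay outside the intervals of genes with many counts, such as Nrp2, at 506 TPM beside 491 to 497 TPM in replicate 2. Flt4 (chr11:49609263-49652739, plus strand), or VEGFR3, the lymphatic receptor for VEGF-C, measured 0.59 TPM from 89 counts in replicate 1 and 1.16 TPM from 286 counts in replicate 2, a mean of 0.875 ± 0.403 TPM (SD, n = 2). Kdr made up 95.6% of the summed level of the 3 receptors in replicate 1 and 97.8% in replicate 2, with sums of 20.9 and 69.1 TPM. The level of Kdr over that of Flt1 was 60.5-fold in replicate 1 and 178-fold in replicate 2.

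Kdr and Flt4 each had a single dominant transcript. The full-length Kdr-201, of 30 exons, held 99.1% of Kdr TPM in replicate 1 and 99.3% in replicate 2. Flt4-201 held 100% of Flt4 TPM in both libraries. Flt1 was split between the full receptor and a shorter form that reads through into the intron after exon 13 and ends there. That form lacks the membrane-spanning and kinase parts and is known as soluble Flt1, a decoy that traps VEGF-A. Capitals mark the coding bases that Flt1-203 alone adds, shown because they tell the forms apart.
Flt1 read-through end, chr5:147639133-147639224, in Flt1-203: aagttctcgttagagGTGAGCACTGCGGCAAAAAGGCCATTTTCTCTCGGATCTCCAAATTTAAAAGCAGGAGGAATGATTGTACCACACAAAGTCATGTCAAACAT
Of coding Flt1 TPM, the short form held 51.6% in replicate 1 and 66.7% in replicate 2, from 24.5 and 60.0 counts. The full receptor, Flt1-202, held 48.4% in replicate 1 and 33.3% in replicate 2, from 24.6 and 32.9 counts. By TPM the short form led in both libraries, on few reads, and also in the second quantification, at 64.5% and 73.5%. By reads the forms were level in replicate 1, where the short form took 49.9% and the full receptor 50.1% of coding reads.

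The co-receptors stood above every receptor and ligand in the set by mean level. Nrp2 (chr1:62703285-62818695, plus strand), which binds VEGF-C, VEGF-A and class 3 semaphorins, measured 357 TPM in replicate 1 and 506 TPM in replicate 2, from 55268 and 128688 counts. Its mean was 432 ± 105 TPM (SD, n = 2), with ranks of 410 and 279 among nuclear protein-coding genes. Nrp1 (chr8:128358604-128503363, plus strand), a co-receptor for VEGF-A and semaphorin 3A, measured 71.4 TPM in replicate 1 and 60.1 TPM in replicate 2, from 5916 and 8262 counts, a mean of 65.7 ± 7.99 TPM (SD, n = 2). The level of Nrp1 was below that of Nrp2 5.01-fold in replicate 1 and 8.42-fold in replicate 2. Whether reads were counted by strand is not stated. The antisense gene Gm29083 inside Nrp2 had 4 counts in replicate 1 and 8 in replicate 2, few beside those of Nrp2.

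Nrp2 transcripts differ at the 3′ end of the coding sequence. The 2a and 2b ends encode different membrane-spanning and cytoplasmic parts, and only the 2a tail ends in the motif known to bind the adaptor Gipc1. A 17-codon cassette and a 5-codon extension lie just before the ends. The first 60 coding bases of each end and both small segments are shown because the forms are counted by them. Capitals mark the segment, and lower case the flanking 15 bases of the transcript.
Nrp2 2a end, chr1:62815333-62815392, in Nrp2-204: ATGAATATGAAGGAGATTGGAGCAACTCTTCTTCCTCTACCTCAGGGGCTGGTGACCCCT
Nrp2 2b end, chr1:62795709-62795768, in Nrp2-205: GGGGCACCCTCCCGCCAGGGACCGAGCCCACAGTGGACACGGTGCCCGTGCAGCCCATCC
Nrp2 17-codon cassette, chr1:62812534-62812584, in Nrp2-202: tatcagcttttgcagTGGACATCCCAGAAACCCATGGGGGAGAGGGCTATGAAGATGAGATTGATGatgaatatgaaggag
Nrp2 5-codon extension, chr1:62786302-62786316, in Nrp2-206: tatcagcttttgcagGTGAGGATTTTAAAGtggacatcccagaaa

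Both ends of Nrp2 were abundant, and their order differed between the libraries. Of coding Nrp2 TPM, the 2a end held 63.0% in replicate 1 and 49.1% in replicate 2, and the 2b end 37.0% and 50.9%. In levels, the 2a end measured 225 TPM in replicate 1 and 248 TPM in replicate 2, whereas the 2b end measured 132 and 257 TPM. The libraries therefore differed mostly in the 2b end. The second quantification gave the same order, with 62.3% and 43.2% for the 2a end. Within the 2a end, forms with the 17-codon cassette held 46.4% of coding TPM in replicate 1 and 37.2% in replicate 2, and forms without it 16.6% and 12.0%. The leading transcript was Nrp2-202 (2a with the cassette) at 41.6% of gene TPM in replicate 1, and Nrp2-205 (2b) at 48.6% in replicate 2. Nrp2-205 held 36.3% in replicate 1, Nrp2-202 held 32.9% in replicate 2, and Nrp2-204 (2a without the cassette) held 14.3% and 8.50%. Forms with the 5-codon extension were the minority at 7.58% and 9.79% of coding TPM, but at 8.34% and 25.9% in the second quantification. Much of that gap lay in Nrp2-201, at 10.8 TPM in replicate 2 and 90.5 TPM in the second quantification of that library. Nrp1 showed no such split, since Nrp1-201 held 97.2% in replicate 1 and 98.4% in replicate 2.

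**Figure D2:**
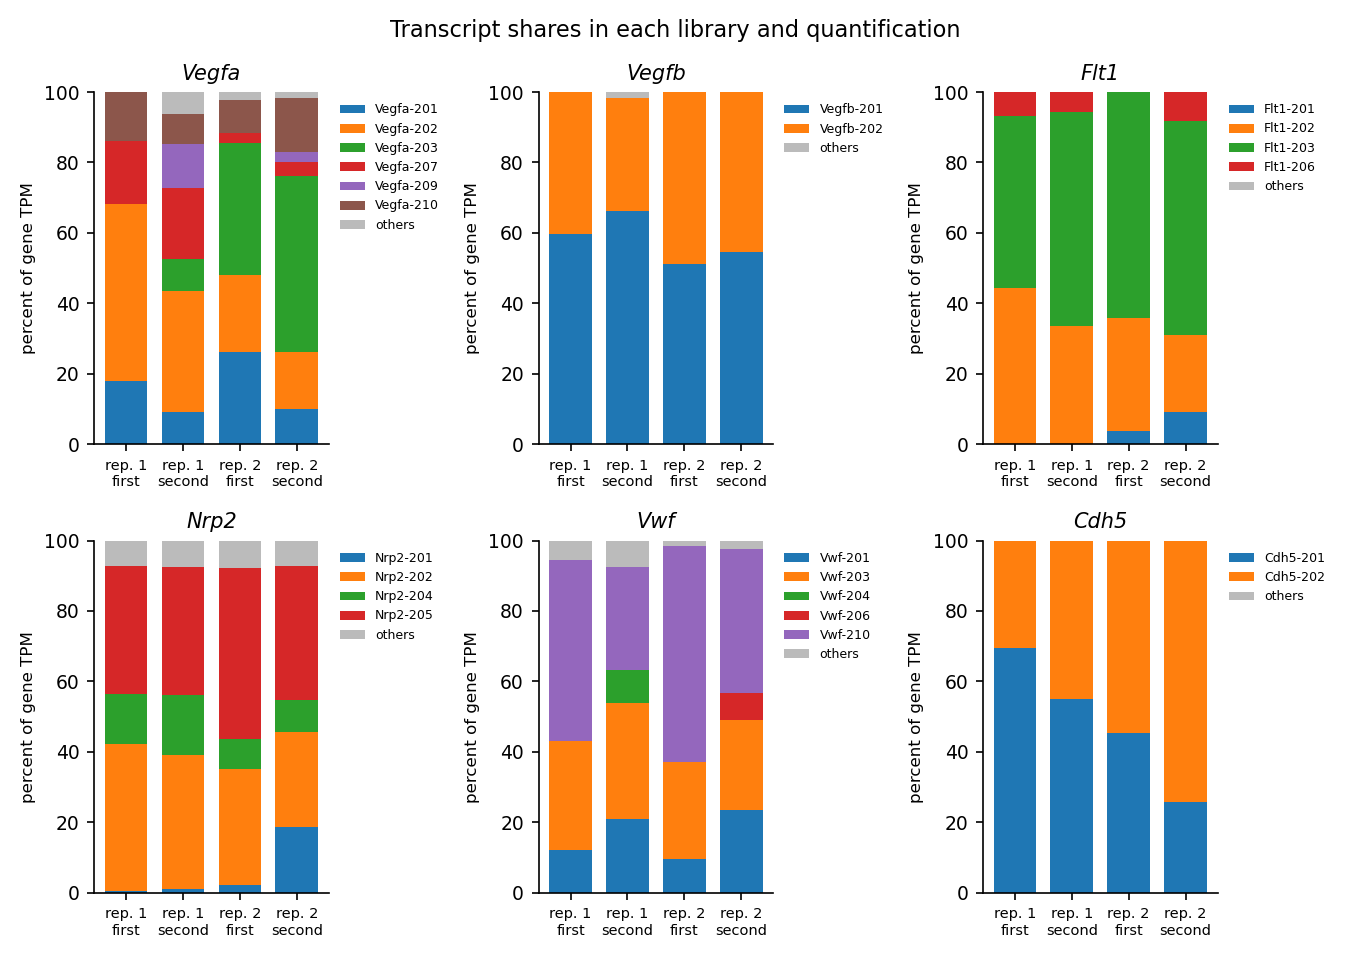
Share of gene TPM in each transcript, in percent (stacked bars from 0 to 100), for Vegfa, Vegfb, Flt1, Nrp2, Vwf and Cdh5 in replicates 1 and 2 and in both quantifications. Vegfa-203 is at 0% in replicate 1 and at 37.5% in replicate 2 of the first quantification, Nrp2-205 at 36.3% and 48.6%, and the fragment Cdh5-202 at 30.5% and 54.8%.

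The endothelial-named genes were detected at a few TPM, with part of the level in incomplete transcripts. Vwf (chr6:125546774-125686679, plus strand), which encodes the clotting glycoprotein von Willebrand factor, measured 4.08 TPM in replicate 1 and 8.97 TPM in replicate 2, from 432 and 1505 counts, a mean of 6.53 ± 3.46 TPM (SD, n = 2). In the first quantification its leading transcript in both libraries was Vwf-210, a 2686-base transcript annotated as a target of nonsense-mediated decay with an incomplete start, at 51.2% in replicate 1 and 61.3% in replicate 2. The full 52-exon Vwf-203 took most of the reads, with 272 counts in replicate 1 and 876 in replicate 2. Per length this came to 1.27 TPM in replicate 1 and 2.48 TPM in replicate 2, or 31.1% and 27.6% of Vwf TPM, and Vwf-201 held 12.1% and 9.47%. The second quantification put Vwf-203 first in replicate 1, at 32.9% beside 29.2% for Vwf-210, and Vwf-210 first in replicate 2, at 40.9% beside 25.6% for Vwf-203.

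Cdh5 (chr8:104101625-104144511, plus strand) encodes VE-cadherin, which joins endothelial cells to each other. It measured 1.42 TPM in replicate 1 and 2.81 TPM in replicate 2, from 93 and 203 counts, a mean of 2.12 ± 0.983 TPM (SD, n = 2). The full-length Cdh5-201 took 92 counts in replicate 1 and 196 in replicate 2, at levels of 0.99 and 1.27 TPM. The remaining 1 count in replicate 1 and 7 counts in replicate 2 went to Cdh5-202, a 346-base fragment with an incomplete end. These few reads were worth 0.43 TPM and 1.54 TPM, or 30.5% and 54.8% of Cdh5 TPM. Counted by Cdh5-201 alone, Cdh5 did not reach 1 TPM in replicate 1, and 6 of the 10 genes reached it in both libraries. The antisense gene Gm29682 inside Cdh5 had 0 counts in both libraries.

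By mean TPM the order was Nrp2, Nrp1, Kdr, Vegfb, Vegfa, Vwf, Cdh5, Flt4, Flt1 and Vegfc. The ranges of the libraries overlapped for the neighbours Nrp1 and Kdr, Kdr and Vegfb, and Vegfa and Vwf, so these were not separated by more than their spread. Kdr lay below Nrp1 in replicate 1 and above it in replicate 2, whereas Kdr lay above Vegfb, and Vegfa above Vwf, within each library. The other neighbours had ranges that did not overlap. Part of this order rests on short transcripts with few reads. Without Vegfa-203 the mean of Vegfa was 5.705 TPM, below the 6.53 TPM of Vwf. By Cdh5-201 alone, Cdh5 measured 0.99 TPM in replicate 1 and 1.27 TPM in replicate 2. That range overlaps the range of Flt4, from 0.59 to 1.16 TPM. By share of TPM, the same transcript led in both libraries for 6 of the 10 genes, beside 76.7% of all genes with several transcripts at any level. Among the 6 is Flt1, whose forms were nearly level in replicate 1. The leading transcript differed for Vegfa, Vegfc (on its 1 and 2 counts), Nrp2 and Cdh5.

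The 10 genes were mostly higher in replicate 2, Kdr by the widest margin. Ratios of replicate 1 over replicate 2 were taken from expected counts scaled by TMM, for the 9 genes that passed edgeR's filter on low counts (Vegfc did not). At 1.5-fold or more, 6 of these 9 were higher in replicate 2 and 0 were higher in replicate 1. Of all 12226 genes compared, 16.7% were that much higher in replicate 2 and 19.1% in replicate 1, or 35.8% in either direction. At 2-fold, 4 of the 9 were higher in replicate 2, beside 5.25% of all genes compared. The median log2 ratio was -0.77 for the 9 genes and 0.01 for all genes compared. Each library is a single sample here, so the ratios compare these libraries, and the intervals that follow cover counting error only, at the 95% level.

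Kdr had a log2 ratio of -1.92 (interval -1.98 to -1.86), which is 3.79-fold higher in replicate 2. Beyond the 5th percentile of all genes compared, -1.01 on that scale, lay also Vegfb at -1.38 (-1.54 to -1.22), Vwf at -1.24 (-1.40 to -1.08) and Flt4 at -1.11 (-1.48 to -0.77). A ligand, a pair of receptors and an endothelial-named gene thus lay past that percentile with TMM-scaled counts. Vegfa at -0.77 (-0.98 to -0.57) and Nrp2 at -0.66 (-0.67 to -0.64) were past 1.5-fold, and Cdh5 at -0.56 (-0.93 to -0.20) was not. The Vegfa ratio is smaller in counts than in TPM, which divides by an effective length of 2425 bases in replicate 1 and 1582 bases in replicate 2. Flt1 at -0.34 (-0.87 to 0.16) had an interval that includes no difference, and Nrp1 at 0.08 (0.03 to 0.13) was nearly level.

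The ratio between the libraries also moved with GC content and length over all genes compared. With that trend removed, Kdr had a ratio of -1.70, Vegfb of -1.42, Vwf of -0.79, Flt4 of -0.73 and Vegfa of -0.60, all still past 1.5-fold, but only Kdr and Vegfb were past 2-fold, 2 genes in place of 4. With total counts Flt4 came to -0.93, and 3 genes were past 2-fold. With the trend removed, Nrp2 came to -0.35 and fell short of 1.5-fold, as it did at -0.48 with total counts. Nrp1 came to -0.27 with the trend removed, the opposite sign to its ratio from TMM-scaled counts. Of the 6 genes, Nrp2 alone was no longer past 1.5-fold with the trend removed or with total counts. Vegfa was only just past 1.5-fold, at -0.588 with total counts and -0.60 with the trend removed. On the log2(TPM + 1) scale, which understates low genes, Flt4 at -0.44 also fell short and Cdh5 at -0.65 was past it.

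**Figure D3:**
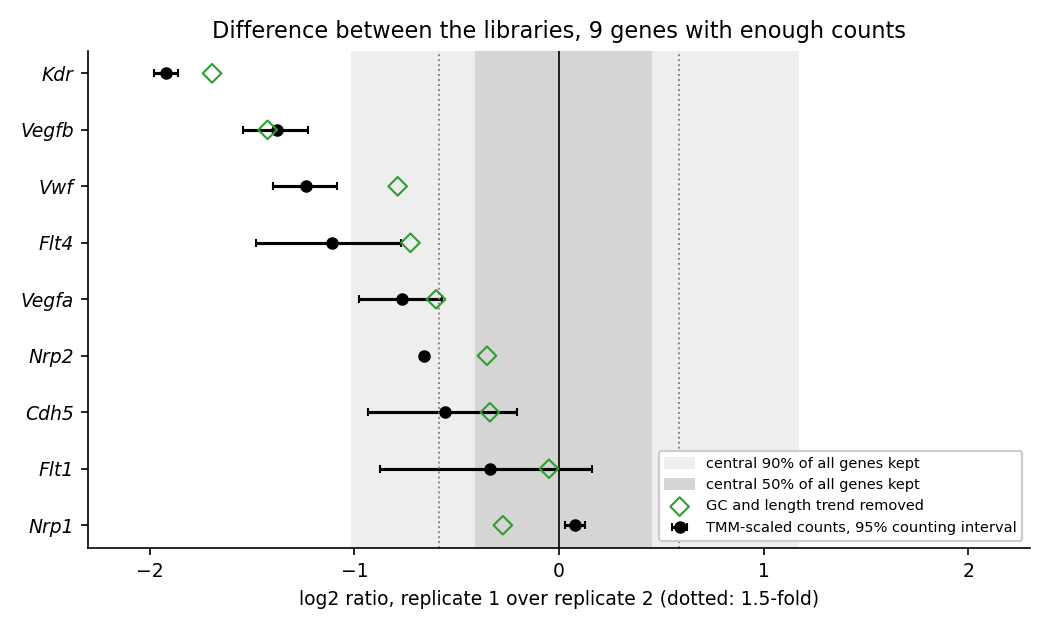
Log2 ratio of replicate 1 over replicate 2 from TMM-scaled counts for the 9 genes compared, with 95% counting intervals, and the same ratio with the GC and length trend removed. Kdr lies lowest at -1.92 and Nrp1 highest at 0.08, and the pale shading, the 5th to the 95th percentile of all genes compared, runs from -1.01 to 1.17 (darker shading: 25th to 75th percentile; dotted lines: 1.5-fold).

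Markers of other cells were read beside these values. Of 21 endothelial markers outside the set, 4 reached 1 TPM in both libraries, namely Calcrl, Eng, S1pr1 and Pecam1. Calcrl measured 60.9 TPM in replicate 1 and 29.0 TPM in replicate 2, Eng (endoglin) 33.3 and 40.8 TPM, and S1pr1, a receptor for sphingosine-1-phosphate, 1.14 and 2.53 TPM. Pecam1, an adhesion molecule also carried by leukocytes, measured 1.46 and 1.88 TPM, and endoglin too is known on macrophages. Of the other markers, 5 had 0 counts in both libraries, namely Cldn5, Robo4, Sox17, Gpihbp1 and Nos3. The remaining 12 had at most 36 counts in a library (Icam2), among them Tie1 with 4 counts in replicate 1 and 1 in replicate 2, Erg with 3 and 1, Emcn with 3 and 14 and Plvap with 5 and 9. Icam2 was at 1.98 TPM in replicate 1 and 0.92 TPM in replicate 2. The median marker was at 0.09 TPM in replicate 1 and 0.05 TPM in replicate 2, with a summed level of 99.9 and 76.3 TPM, most of it from Calcrl and Eng. Of the 6 endothelial markers compared, 2 were 1.5-fold or more higher in replicate 1 and 1 in replicate 2. All genes compared had shares of 19.1% and 16.7%. The median log2 ratio of these 6 markers was 0.03. Of the 6 lymphatic endothelial markers, Pdpn alone reached 1 TPM in both libraries, at 60.7 and 74.6 TPM, and Ccl21a was at 0 counts.

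Vwf, which was higher in replicate 2, is also a product of megakaryocytes and platelets, and their part in its level was not tested. Of 12 platelet markers, 5 had enough counts to be compared, some of them few (Gp6 with 25 and 15). All 5 were at least 1.5-fold higher in replicate 1 than in replicate 2, among them Pf4 at 753 and 105 TPM and Ppbp at 11.8 and 1.68 TPM. All 4 neutrophil markers compared were likewise 1.5-fold or more higher in replicate 1, with S100a9 at 316 and 10.2 TPM. Of the 11 macrophage markers compared, 5 were 1.5-fold or more higher in replicate 2, among them Cd68 at 2496 and 5400 TPM, and 0 were that much higher in replicate 1, beside 16.7% and 19.1% of all genes compared. Below that fold, Adgre1, which encodes the F4/80 antigen, was the higher in replicate 1, at 747.5 and 478.5 TPM. Of 5 progenitor markers, Ly6a alone reached 1 TPM in both libraries, at 35.1 TPM in replicate 1 and 45.5 TPM in replicate 2. The 9 fibroblast markers summed to 2.25 TPM in replicate 1 and 1.66 TPM in replicate 2. The part of the other cells and of the macrophage markers in the levels of the 10 genes was not tested.

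**Figure D4:**
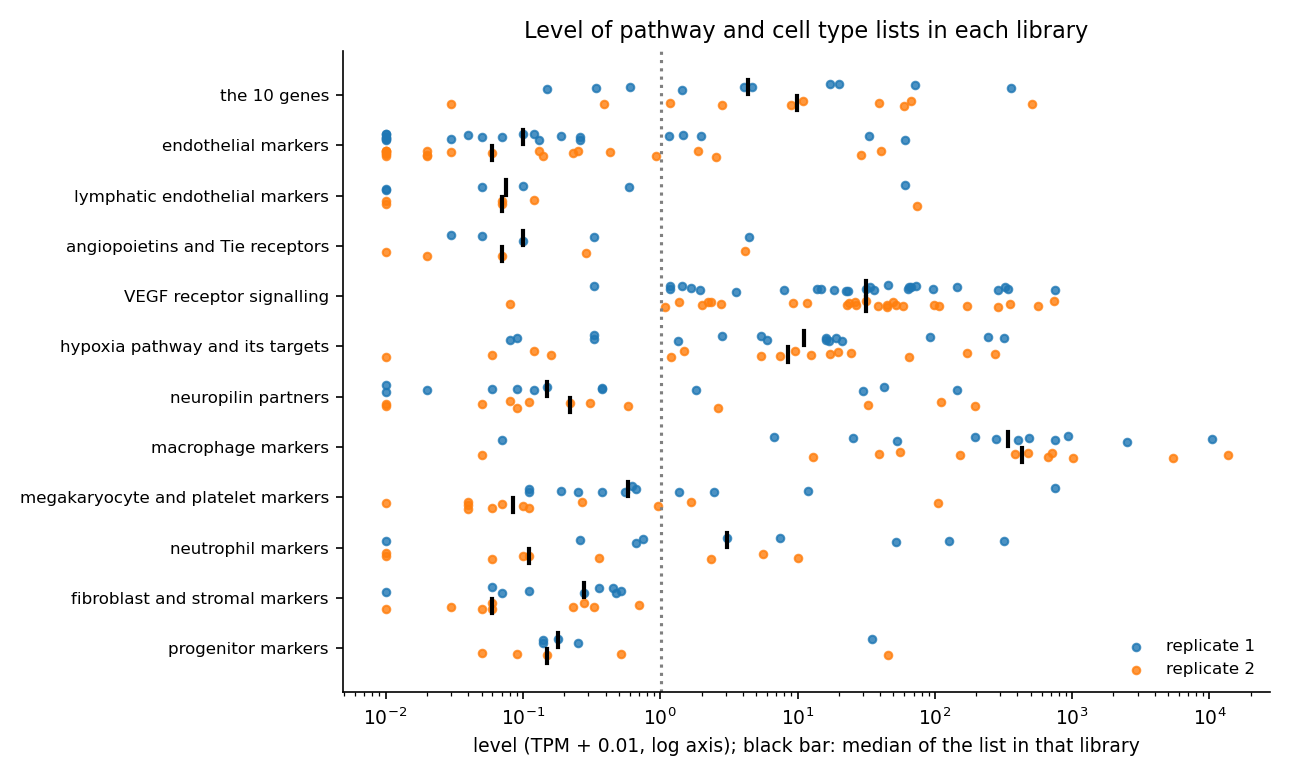
Level of each gene (points, TPM + 0.01 on a log axis) among the 10 genes and in 11 lists of pathway genes and cell type markers, with replicate 1 above replicate 2. Black bars are medians and the dotted line marks 1 TPM; the 10 genes have medians of 4.36 and 9.93 TPM, the 12 macrophage markers of 342 and 430 TPM, and the 21 endothelial markers of 0.09 and 0.05 TPM.

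Genes that act with the 10 were present to very different degrees. Of 13 semaphorins, plexins and adaptors that work with neuropilins, 4 reached 1 TPM in both libraries, among them Plxnd1, a plexin receptor for semaphorin 3E, at 144 TPM in replicate 1 and 197 TPM in replicate 2. Plxna1, a plexin that pairs with neuropilins, measured 42.3 and 110.8 TPM, and the adaptor Gipc1 29.9 and 32.3 TPM. Sema3d was at 0 counts in both libraries. At 1.5-fold or more, 2 of the 7 compared were higher in replicate 2 and 0 in replicate 1, beside 16.7% and 19.1% of all genes compared.

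Signalling genes downstream of VEGF receptors, most of which act in many cell types, were nearly all detected. Of 27, 26 reached 1 TPM in both libraries, led by the small GTPase Cdc42 at 745 TPM in replicate 1 and 739.5 TPM in replicate 2, the kinase Mapkapk2 at 326 and 567 TPM and the GTPase Rac1 at 288 and 352 TPM. Of the 26 compared, 9 were 1.5-fold or more higher in replicate 2 and 2 were that much higher in replicate 1, beside 16.7% and 19.1% of all genes compared. The exception was Hspb1, a heat shock protein and target of Mapkapk2, at 0.32 and 0.07 TPM.

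Hypoxia-linked genes, which share the HIF pathway with Vegfa, had a median log2 ratio of 0.15. All genes compared had a median of 0.01, and Vegfa had a ratio of -0.77. The part of the HIF pathway in the Vegfa level was not tested. Of 16, 12 reached 1 TPM in both libraries, with Ldha at 320 TPM in replicate 1 and 273 TPM in replicate 2, Pgk1 at 245 and 170 TPM and Hif1a at 91.9 and 64.3 TPM. Of the 12 compared, 1 was higher in replicate 1 by 1.5-fold or more and 0 in replicate 2, beside 19.1% and 16.7% of all genes compared. The lowest was Ankrd37, at 0.07 and 0 TPM.

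Enzymes that mature VEGF-C were partly present although the ligand was not detectable above the 3-count level. Furin, a proprotein convertase, measured 95.3 TPM in replicate 1 and 183 TPM in replicate 2, the convertase Pcsk7 measured 22.1 and 20.8 TPM, Adamts3 measured 0.07 and 0.14 TPM and Pcsk5 was at 0 counts. Of the 5 angiopoietin and Tie genes, Angpt1 alone reached 1 TPM in both libraries, at 4.45 and 4.14 TPM, and its receptor gene Tek had 2 counts in replicate 1 and 0 in replicate 2.

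Among 11 other factors that promote or restrain vessel growth, 6 reached 1 TPM in both libraries, led by the membrane protease Mmp14 at 310 TPM in replicate 1 and 254 TPM in replicate 2, Tgfb1 at 174 and 254 TPM and Sema4d at 134 and 247 TPM, whereas Fgf2 was at 0.07 and 0.05 TPM. The catenins that anchor VE-cadherin in endothelial cells, and other cadherins elsewhere, were abundant beside Cdh5. Ctnnb1 measured 214 TPM in replicate 1 and 199 TPM in replicate 2, Ctnna1 90.6 and 98.9 TPM and Ctnnd1 52.4 and 54.6 TPM. The phosphatase gene Ptprb, which acts on VE-cadherin and Tek in endothelium, was at 0.01 TPM in each library.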

How the data were processed

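Polyadenylated RNA was measured in 2 libraries of 1 group, numbered by the labels as biological replicates. Nothing beyond separate biosamples and a shared donor record says whether cultures were separate. The tables use mm10 and GENCODE M21, per the notes deposited beside them, and the sources used here give no aligner, quantifier or version. The authors deposited expected counts, estimated reads per gene or transcript. Deposited TPM values are scaled for effective length and to a fixed library total, so reads assigned to short transcripts weigh more. Deposited FPKM values served as 1 alternative. The deposited percent column is each transcript's share of its gene's TPM, and the deposited bounds of TPM are other values, whose level is not stated. The listed TPM lay outside these bounds for several genes, among them Nrp1 and Nrp2 in both libraries. Counts of 26345 entries that name no gene (tRNA, spike-ins), 0.132% and 0.0882% of the total, were left out.

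Symbols came from the identifiers of the second transcript tables. Levels are given as means ± SD. Ratios used rounded expected counts with TMM factors of 1.06 and 0.939 (edgeR 4.0.16, R 4.3.3) and a prior count of 2, for 12226 genes kept by edgeR's filter. Counting intervals are exact binomial at 95% and cover counting error only, and the 3-count level is a limit per library. The ratio script was tested on simulated data. DESeq2 1.42.0 gave size factors for an alternative. The libraries differed beyond sampling noise, with a chi-square per gene of 325 on counts scaled by library total alone. That value cannot tell separate cultures from separate preparations of the same culture. In the SDs, n = 2 counts libraries. The GC and length trend is a loess fit over all genes compared, with a span of 0.3.

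The 10 genes and all lists were chosen with earlier results of these data known. Named are the 10 genes, their transcripts at 10% or more of the gene in either library, Pgf and Vegfd, and genes from the 3 highest and the lowest of each list. Pecam1, Tie1, Erg, Emcn, Plvap, Icam2, Adgre1, Cldn5, Robo4, Sox17, Gpihbp1, Nos3, Ccl21a, Nrp2-201, Gm29083 and Gm29682 were named after their values were seen. With 1 group, no comparison between conditions and no test was made.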

Additional observations from a re-analysis of the deposited data

How the results depend on the processing

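The count of genes at 1 TPM in both libraries, 7 of 10, ranged from 6 to 9 over the alternatives (6 with FPKM or at 2 TPM, 8 at 0.5 TPM, 9 at 10 counts) and from 7 to 8 with either replicate left out. Under every scaling and filter tried, 0 of the 9 genes were 1.5-fold higher in replicate 1, and between 4 and 7 were higher in replicate 2: 4 at 2-fold (5.25% of all genes compared), 5 with total counts (10.5%) or with the GC trend removed (15.3%, Nrp2 lost in both), 5 with log2(TPM + 1) (11.0%, Nrp2 and Flt4 lost, Cdh5 gained), and 7 with no filter before TMM (19.8%). Each percentage is the share of all genes compared that were higher in replicate 2 under that setting. With total counts Vegfa was only just past 1.5-fold, at -0.588. Total counts moved the median log2 ratio of all genes compared to 0.19, against 0.01 with TMM, and the share of called genes that were higher in replicate 2 to 28.0%, against 46.6%. The median of the 9 genes was -0.59 with total counts and -0.77 with TMM. The second quantification moved the log2 level of Vegfa over Vegfb to -1.42, against -1.87, and the cause was not tested. Without Vegfa-203, an alternative chosen after seeing the data, it was -2.21. The second quantification had 5 genes with the same leading transcript in both libraries, against 6, with Vwf not among them. By Vwf-203 alone the mean Vwf level was 1.88 TPM, and by Cdh5-201 alone the mean Cdh5 level was 1.13 TPM. Ratios between the libraries have no value without a replicate. No paired analysis was possible because the series holds 1 group. Depth limits Vegfc, Vegfd and Pgf, and Flt1, which had fewer than 100 counts in each library.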
